A study of Mus musculus with 21 samples.

Results

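Sperm RNA was compared with the RNA of the 1-cell embryo, and the oocyte served as the reference for what the egg already held. The comparison comprised 6 of the 21 libraries of a mouse preimplantation series: 2 short-read libraries of sperm, 2 of 1-cell embryos and 1 long-read pool of each stage. The libraries were chosen by the stage that their labels give. In the short-read data, 2 oocyte libraries were added, and the oocyte long-read pool was used in the same way. Sperm came from the epididymis of DBA/2J males according to the sample labels (the protocol text names DBA/2N). Oocytes in metaphase of the second meiotic division came from C57/BL6J females aged 3 to 5 weeks that had been superovulated with 7.5 IU of pregnant mare serum gonadotropin and 7.5 IU of human chorionic gonadotropin (hCG), and were lysed at 20 h after hCG. The 1-cell embryos came from females of the same strain and age, treated in the same way and mated with the DBA males, and were lysed 24 to 26 h after hCG following culture in KSOM. No group carried a mutation or a drug. Each library was made from pooled gametes or embryos by Smart-seq2 amplification, which primes on poly(A) tails. RNA without such a tail is missed, so a low oocyte TPM does not show that the egg lacked the RNA. Whether tails differed between oocyte and 1-cell was not tested. The study collected 2 batches at each stage and sequenced the cDNA of each by short reads, so the replicates are collection batches, and the long-read pools mixed both. Neither the labels nor the methods say that a replicate number marks the same batch in different stages, or which animals each batch came from, so the p-values measure the spread between these libraries.

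A mature sperm cell has shed most of its cytoplasm and is taken to be almost silent in transcription. The RNA that it still carries is largely left over from spermatids, in which protamines replace histones and the tail and acrosome are built. The egg, in contrast, stores a large pool of maternal messages, and the zygotic genome is activated only weakly at the 1-cell stage and mainly at the 2-cell stage in the mouse. From levels alone, a sperm RNA can therefore be recognised in the 1-cell embryo only where the oocyte holds little of it. RNA that a sperm brings is diluted in the maternal pool, so a value under 1 TPM does not show that none was brought.

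Expression was measured as TPM, a share of the library corrected for transcript length, which is not a number of molecules per cell. A lower TPM in a bulk sample could come from fewer cells of a type or from less RNA per cell, and these cannot be told apart. The 22612 merged long-read transcripts were assigned to 10917 annotated genes by exon overlap on the same strand. Transcripts with no annotated gene took between 6.73% and 19.6% of the TPM in the 6 short-read libraries. A TPM of at least 1 was reached by 9551 and 9234 genes in the sperm libraries, 7049 and 6972 in the oocyte libraries and 7957 and 7491 in the 1-cell libraries. The sperm replicates differed most: the median SD of a gene between replicates was 0.85 on the log2 scale in sperm, 0.49 in oocyte and 0.46 at 1-cell. TPM keeps no read depth, so the counting error behind a low value is unknown.

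About as many genes passed the test of the 1-cell embryo against sperm as did not. With 2 libraries per stage, a gene that did not pass is not shown to be equal. Of 10139 genes tested with limma on log2(TPM + 1), 5205 (51.3%) passed an adjusted p under 0.05, and 5830 (57.5%) had an unadjusted p under 0.05. Of the 5205, 1850 (18.2% of those tested) were higher at 1-cell and 3355 (33.1%) were lower. The median difference over all genes tested, 1-cell minus sperm, was -0.51 on the log2 scale. Without 1 of the sperm or 1-cell libraries the higher count was 886 (without 1-cell replicate 1), 1164 (without 1-cell replicate 2), 969 (without sperm replicate 1) or 941 (without sperm replicate 2), and the lower count was 2098 without 1-cell replicate 2. The split between the directions depended on the scaling, since quantile normalization gave 2380 higher and 2479 lower genes. In the comparison of 1-cell with oocyte, which shares the 1-cell libraries, 0 genes (0.0%) passed in the same limma fit. There, 659 genes (6.5%) had an unadjusted p under 0.05, 556 of them (5.48%) higher and 103 (1.02%) lower at 1-cell, and the median over all genes was 0.20. Among other settings the calls against oocyte ranged from 0 to 77 higher and from 0 to 10 lower genes.

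**Figure D1:**
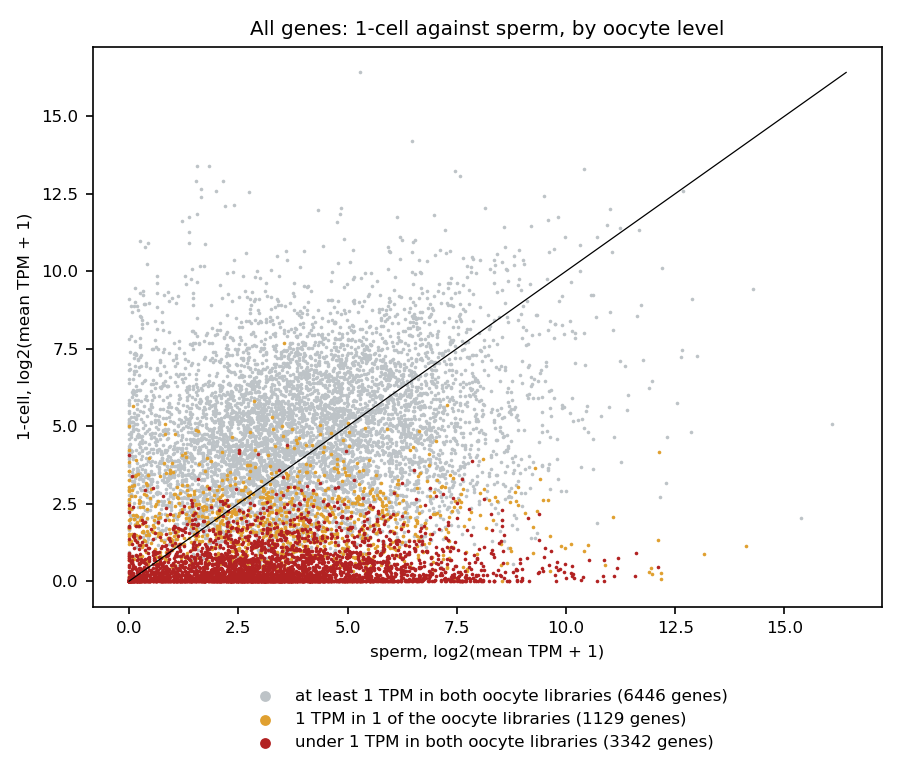
Mean 1-cell level (vertical axis) against mean sperm level (horizontal axis), both as log2(mean TPM + 1), for each of the 10917 genes, coloured by the oocyte level; the line marks equal levels. Most genes under 1 TPM in both oocyte libraries (red) lie near the bottom over a wide range of sperm levels, and some, such as Rnf121, lie higher. Cd74, Nupr1l and H2-Ab1, among the highest in sperm, exceed 1 TPM in an oocyte library and are not red. The genes with the highest 1-cell values have at least 1 TPM in both oocyte libraries (grey).

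Genes with roles in spermatids and sperm were abundant in sperm, and most were under 1 TPM at 1-cell. Across 7 lists of sperm and spermatid genes, 132 genes were measured and 129 tested. Of these, 99 fell from sperm to 1-cell (background 33.1% of all genes), 5 rose (background 18.2%) and 25 did not pass. Their median difference was -3.60 on the log2 scale, beside -0.51 over all genes. Of the 84 that had at least 1 TPM in both sperm libraries and under 1 TPM in both oocyte libraries, 0 reached 1 TPM in both 1-cell libraries. Over all genes of that kind, 251 of 2485 (10.1%) did. Some of the 84 reached it in a single library, such as Clgn (1.37 TPM) and Camk4 (1.13 TPM) in 1-cell replicate 1 and Clu (1.45 TPM) in replicate 2. Against oocyte, 0 of the 129 passed the test, 1 had an unadjusted p under 0.05 in the higher direction (background 5.48%) and 0 in the lower direction. Both 1-cell libraries were above both oocyte libraries for 18 of the 129 and below for 6, beside 27.5% and 8.91% of all genes tested.

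The protamines and transition proteins package sperm DNA after histones are removed. Prm1, protamine 1, had 1842 and 6156 TPM in sperm, 1.21 and 0 in oocyte and 0 and 0.358 at 1-cell. It fell by 11.50 on the log2 scale (SE 0.94, limma adjusted p = 1.68e-05), and its oocyte and 1-cell values overlapped. Prm2, protamine 2, had 9070 and 869 TPM in sperm, 3.40 and 4.16 in oocyte and 15.2 and 0.576 at 1-cell. The 1-cell libraries thus lay on either side of the oocyte libraries, and the difference from oocyte was 0.08 (SE 1.26). From sperm, Prm2 fell by 9.12 (SE 1.26, limma adjusted p = 0.000118). Tnp2, transition protein 2, had 2448 and 6336 TPM in sperm, 0.939 and 0 in oocyte and 0.185 and 0.557 at 1-cell. Tnp1, transition protein 1, had 156 and 32.7 TPM in sperm and was listed at 0 in both oocyte and both 1-cell libraries. Prm3 had 242 and 45.0 TPM in sperm and 2.76 and 0.353 at 1-cell, around its oocyte values of 1.19 and 1.15. Of the 9 members tested, 8 fell. The remaining member, Hist1h2aa, a histone H2A gene, rose from 0.524 and 3.35 TPM in sperm to 107 and 19.8 at 1-cell, and the oocyte held it at 28.3 and 67.9.

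The promoters of 5 of these spermatid genes are shown because these genes were high in sperm and low at 1-cell, and because many spermatid genes are known targets of the activator CREM, which binds the cAMP response element TGACGTCA. The 3 most abundant genes in sperm whose promoter holds TGACNTCA on either strand (N is any base) and the 2 most abundant without it were taken among genes of the protamine, tail, acrosome, energy and channel lists whose annotated start lay within 100 bases of the sperm transcript's 5′ end. The sequences are the 250 bases before the start from RefSeq on GRCm38.p6, the assembly of mm10, given 5′ to 3′ on the gene's strand with the motif in capitals.
Prm1, chr16:10796824-10797073, minus strand: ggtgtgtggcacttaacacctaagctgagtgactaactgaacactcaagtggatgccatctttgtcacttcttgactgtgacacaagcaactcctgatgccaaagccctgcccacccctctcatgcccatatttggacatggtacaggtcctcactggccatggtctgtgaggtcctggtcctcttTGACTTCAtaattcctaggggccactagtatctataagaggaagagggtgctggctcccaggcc
Prm3, chr16:10790915-10791164, minus strand: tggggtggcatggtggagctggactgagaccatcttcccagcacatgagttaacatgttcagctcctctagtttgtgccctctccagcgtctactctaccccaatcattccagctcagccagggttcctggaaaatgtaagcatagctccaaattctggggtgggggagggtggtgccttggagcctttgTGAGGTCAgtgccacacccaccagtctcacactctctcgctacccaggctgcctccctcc
Pgam2, chr11:5803797-5804046, minus strand: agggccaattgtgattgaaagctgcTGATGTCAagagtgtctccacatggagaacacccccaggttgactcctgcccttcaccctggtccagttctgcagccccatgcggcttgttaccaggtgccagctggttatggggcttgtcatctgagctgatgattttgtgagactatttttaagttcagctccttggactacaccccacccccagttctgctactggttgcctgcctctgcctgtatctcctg
Prm2, chr16:10792106-10792355, minus strand: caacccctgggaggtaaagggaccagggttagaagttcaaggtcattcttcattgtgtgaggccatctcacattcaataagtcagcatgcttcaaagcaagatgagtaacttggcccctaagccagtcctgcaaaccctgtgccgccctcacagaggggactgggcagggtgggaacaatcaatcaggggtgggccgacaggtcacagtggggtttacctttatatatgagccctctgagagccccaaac
Tssk6, chr8:69901934-69902183, plus strand: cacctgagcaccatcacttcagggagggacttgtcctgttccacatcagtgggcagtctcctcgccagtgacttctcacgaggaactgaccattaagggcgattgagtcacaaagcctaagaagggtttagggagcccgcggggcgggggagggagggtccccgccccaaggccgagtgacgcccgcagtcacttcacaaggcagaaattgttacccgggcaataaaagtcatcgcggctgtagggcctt
The motif began 64 bases before the start in Prm1, 60 bases in Prm3 and 225 bases in Pgam2. The 3 forms of the element were searched on both strands and differed in their shares. Of the 84 genes of these 5 lists with a promoter in the table, 0 held the full TGACGTCA, 12 (14.3%) held the shorter TGACG and 22 (26.2%) held TGACNTCA. Over all 32851 promoters of the table the shares were 1.55%, 17.8% and 7.49%. The full and the short form were searched first and were not more frequent in the lists than over all promoters. The form TGACNTCA was chosen only after the Prm1 promoter had been read, and Prm1 is among the 22 genes, so its share is no independent evidence. Matches to TGACNTCA include every TGACGTCA. The share with TGACNTCA was 9.12% of the 2490 genes with a promoter that fell from sperm to 1-cell and 5.83% of the 1356 that rose. A match describes letters only.

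Genes of the sperm tail showed the same pattern. Of 32 genes of the outer dense fibres, fibrous sheath and axoneme, 28 fell from sperm to 1-cell and 0 rose. Odf1, which encodes a main protein of the outer dense fibres, had 485 and 7373 TPM in sperm, 1.02 and 0.0751 in oocyte and 0 and 0.698 at 1-cell, a fall by 10.51 (SE 1.15, limma adjusted p = 3.99e-05). Smcp, a protein of the capsule of sperm mitochondria, had 3313 and 418 TPM in sperm and was listed at 0 in both 1-cell libraries. Ropn1l, a protein of the fibrous sheath, had 281 and 1690 TPM in sperm and 0.250 and 0.221 at 1-cell, within its oocyte range of 0.159 to 0.573. The 4 members that did not pass were Dnah8, Tekt2, Cep19 and Tsga10, and Dnah8, an axonemal dynein, had 58.2 and 34.0 TPM in oocyte and 102 and 22.8 at 1-cell.

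Genes of the acrosome, zona binding and gamete fusion followed, with 26 of 30 tested members falling and 0 rising. Izumo4 had 294 and 434 TPM in sperm, 8.88 and 0.0749 in oocyte and 2.12 and 0.487 at 1-cell, so the 1-cell values lay inside the oocyte range. Acr, the protease acrosin, had 228 and 76.6 TPM in sperm and was listed at 0 in both 1-cell libraries. Spaca1, an acrosomal membrane protein, had 37.3 and 372 TPM in sperm and 0.0880 and 0.410 at 1-cell. Clgn, a chaperone of spermatids, was the nearest to the limit, with 35.6 and 293 TPM in sperm, 0.258 and 0.630 in oocyte and 1.37 and 0.911 at 1-cell, and it differed from oocyte by 0.57 (SE 0.98). Plcz1, the sperm phospholipase that sets off calcium oscillations in the egg, had 12.5 and 1.84 TPM in sperm and was listed at 0 in all 4 oocyte and 1-cell libraries. It fell by 2.63 (SE 0.65, limma adjusted p = 0.00444). All 4 measured members of the short list of egg activation and sperm-borne candidates fell (Prm2, Pgk2, Clu and Plcz1), beside a background of 33.1%. Among these, Prm2 is also in the protamine list and Pgk2 in the energy list. The call of Clu, a secreted chaperone, was lost without 1-cell replicate 1 (adjusted p = 0.0524) and without sperm replicate 1 (adjusted p = 0.0518).

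Isozymes and signalling proteins that serve sperm motility were also low at 1-cell. In the list of germ cell energy metabolism, 15 of 18 tested members fell and 0 rose. Ldhc, the testis lactate dehydrogenase, had 197 and 56.8 TPM in sperm and 0.247 and 0.319 at 1-cell, and oocyte 0.326 and 0. Pgk2, the testis phosphoglycerate kinase, had 110 and 17.8 TPM in sperm and was listed at 0 in both 1-cell libraries. Among sperm channels and signalling, 11 of 15 fell and 0 rose. Tssk6, a kinase of spermatids, had 8104 and 1162 TPM in sperm, 4.20 and 0.0484 in oocyte and 0.232 and 0.180 at 1-cell. It fell by 11.31 (SE 1.10, limma adjusted p = 2.79e-05). Catsperz, a subunit of the sperm calcium channel, had 88.9 and 17.6 TPM in sperm and 0 and 0.0995 at 1-cell.

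**Figure D2:**
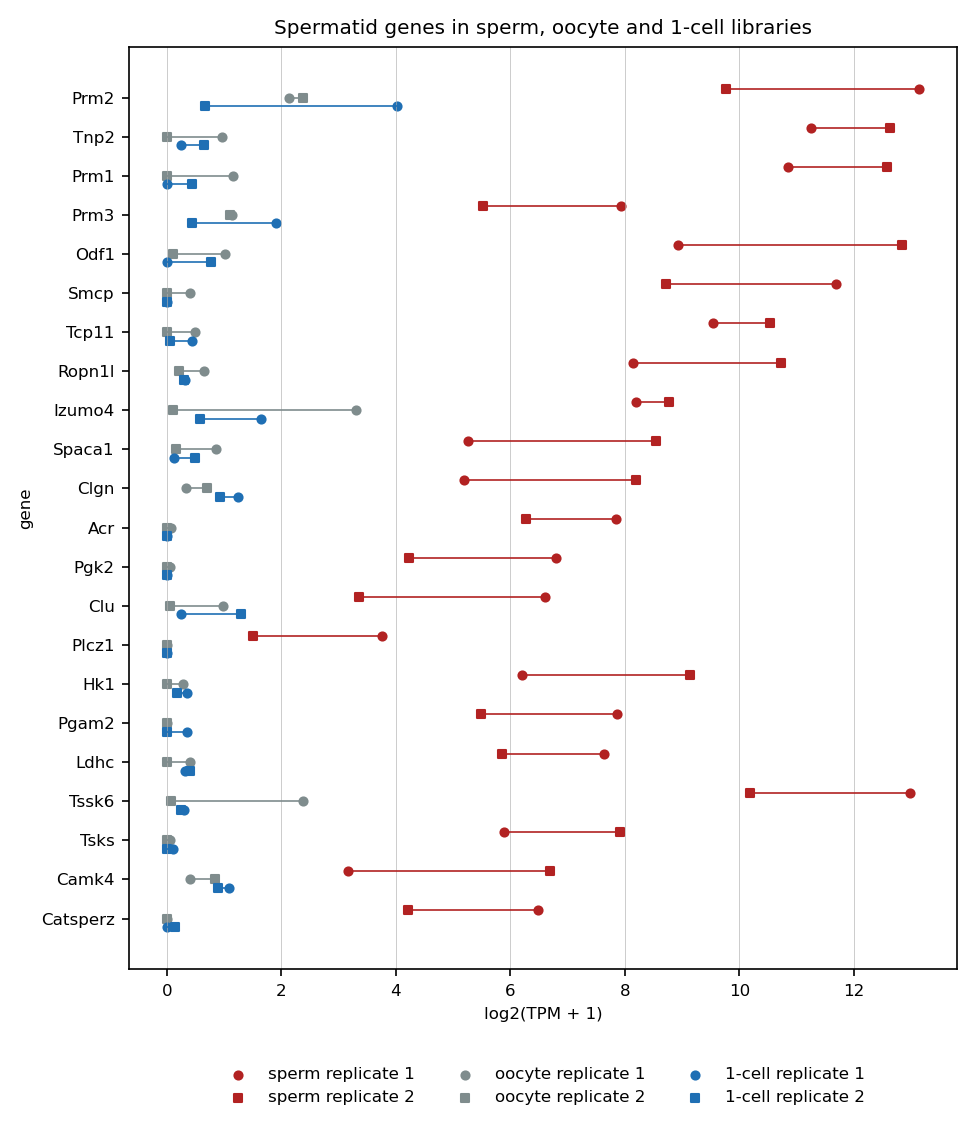
TPM on the log2(TPM + 1) scale (horizontal axis) in each sperm, oocyte and 1-cell library for the 22 named genes of 6 sperm lists; a line joins the replicates of a stage. For each of the 22 genes both sperm values lie to the right of both 1-cell values, and the oocyte and 1-cell values lie near each other at the left.

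Of 24 tested regulators of gene expression in spermatids, 10 fell, 4 rose and 10 did not pass. These counts lie near the background of 33.1% lower and 18.2% higher genes. The 4 that rose were Dazl, Cpeb1, Brdt and Tdrd1. Brdt, a bromodomain protein of the germ line, had 26.7 and 14.6 TPM in sperm, 3517 and 1361 in oocyte and 1033 and 2528 at 1-cell. Dazl, an RNA-binding protein of germ cells, had 1.13 and 2.41 TPM in sperm, 166 and 1423 in oocyte and 639 and 329 at 1-cell. Tdrd1, a Tudor protein of the piRNA pathway, had 2.13 and 5.05 TPM in sperm, 9.12 and 8.72 in oocyte and 35.6 and 43.0 at 1-cell, above both oocyte libraries, with an unadjusted limma p of 0.0345 against oocyte (adjusted p = 0.691). The histone H3.3 gene H3f3b was the most abundant member in sperm, at 454 and 2270 TPM, and had 16014 and 4094 TPM at 1-cell, beside 10627 and 7989 in oocyte.

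The oocyte has no Y chromosome, so reads of a Y gene without a copy on another chromosome cannot come from it. In the sperm libraries they could come from sperm or from other male cells, whose part was not tested. Of 9 Y genes matched, 7 had at least 1 TPM in both sperm libraries and 6 were listed at 0 in both 1-cell libraries. Eif2s3y, which encodes a translation initiation subunit, had 56.8 and 2.36 TPM in sperm, 0 in both oocyte libraries and 0 and 0.157 at 1-cell. Ddx3y, an RNA helicase, had 17.7 and 1.32 TPM in sperm, 0 in both oocyte libraries and 0 and 0.253 at 1-cell. Both lay far below 1 TPM in the 1-cell embryo, where only 1-cell replicate 2 listed a value above 0. Eif2s3y fell by 3.70 (SE 0.97, limma adjusted p = 0.00624, and 0.0543 without 1-cell replicate 1). Ddx3y fell by 2.56 (SE 0.76, limma adjusted p = 0.0129). Without 1-cell replicate 1 the adjusted p of Ddx3y was 0.0970, without 1-cell replicate 2 it was 0.0601, and with quantile normalization it was 0.101. The sperm genes Gm20916 (74.6 and 17.7 TPM) and Gm20901 (38.6 and 10.2 TPM), which belong to multicopy families whose reads can be split among copies, were listed at 0 at 1-cell. The single Y gene over 1 TPM at 1-cell was Gm47283 (chrY:90784738-90816464), with 334 and 660 TPM in sperm, 18.2 and 10.8 at 1-cell and 40.6 and 6.72 in oocyte. Because the oocyte has no Y chromosome, reads listed for this gene need not come from the Y. Whether they came from a copy on another chromosome was not tested. The 1-cell values of Gm47283 lay inside its oocyte range. Its fall from sperm by 4.96 (SE 1.02, limma adjusted p = 0.00148) was lost without sperm replicate 2 (adjusted p = 0.0718).

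Most genes that sperm shared with the 1-cell embryo were also held by the oocyte. At least 1 TPM in both sperm libraries was reached by 8814 genes. Of these, 5476 had at least 1 TPM in both oocyte libraries, and 5347 of them (97.6%, Wilson 95% interval 97.2 to 98.0%) also had at least 1 TPM in both 1-cell libraries. Among oocyte-held genes under 1 TPM in both sperm libraries the share was similar, 406 of 422 (96.2%, 93.9 to 97.7%). A further 2485 of the 8814 were under 1 TPM in both oocyte libraries, and 251 of these (10.1%, 8.98 to 11.3%) were seen in both 1-cell libraries. Among genes under 1 TPM in both sperm and both oocyte libraries, 23 of 392 (5.87%, 3.94 to 8.65%) were seen. The order of these last 2 shares turned without oocyte replicate 1, where they were 16.7% for sperm-held genes and 20.6% for genes low in sperm. The intervals cover counting error over genes only, and genes are not independent replicates. By single libraries, 21.9% of the 2485 reached 1 TPM in 1-cell replicate 1 and 13.5% in replicate 2, beside 14.3% and 8.42% of the 392.

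Among genes under 1 TPM in both oocyte libraries, the share seen was higher above an oocyte mean of 0.1 TPM than below it, for genes that sperm held and for genes that it did not. With an oocyte mean of 0, 7 of 645 sperm-held genes (1.09%) and 0 of 192 genes low in sperm were seen at 1-cell. Between 0 and 0.1 TPM in oocyte the counts were 2 of 580 (0.345%) and 0 of 84, so the share did not increase between the 2 lowest bins. Between 0.1 and 0.5 TPM they were 133 of 998 (13.3%) and 16 of 94 (17.0%), and between 0.5 and 1 TPM they were 109 of 262 (41.6%) and 7 of 22 (31.8%). The share differed less between bins of the sperm level. Of the genes under 1 TPM in both oocyte libraries, 8.74% of 1613 were seen where the lower sperm library had 1 to 10 TPM, 12.7% of 772 at 10 to 100 TPM, 12.8% of 94 at 100 to 1000 TPM, and 0 of 6 above that.

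**Figure D3:**
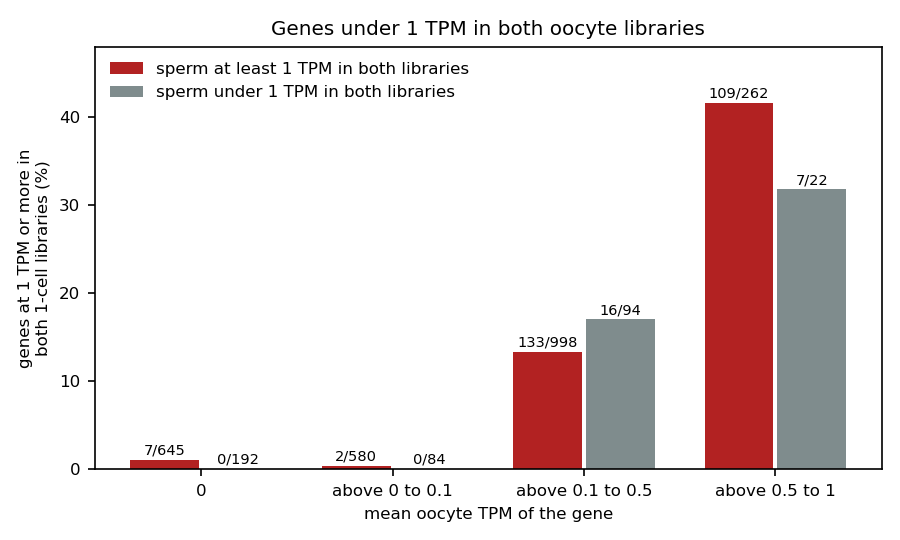
Share of genes with at least 1 TPM in both 1-cell libraries (vertical axis, percent) by the mean oocyte TPM of the gene (horizontal axis), for genes under 1 TPM in both oocyte libraries; red bars are genes with at least 1 TPM in both sperm libraries, grey bars genes under 1 TPM in both, and the counts stand above the bars. The share is 1.09% at an oocyte mean of 0 and 41.6% between 0.5 and 1 TPM for the sperm-held genes.

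A set of 872 genes had at least 10 TPM in both sperm libraries and under 1 TPM in both oocyte libraries. Their 1-cell TPM was a small share of their sperm TPM. The RNA content of sperm and embryos was not measured, so this share does not give how much sperm RNA was kept. The median ratio of mean TPM was 0.441% (quartiles 0.0553 and 1.76%). It was 0.438% with 1-cell replicate 1 alone and 0.355% with replicate 2 alone. It was 0.711% without sperm replicate 1, 0.640% without oocyte replicate 1 and 0.794% without oocyte replicate 2, and 0.0751% for genes with oocyte values under 0.1 TPM. For 136 of the genes the 1-cell value was 0 in both libraries, for 322 the ratio was above 1%, and for 35 it was above 10%. In all, these genes took 10.9% and 13.8% of the TPM in sperm and 0.0790% and 0.0533% at 1-cell. Their oocyte share of 0.0205% and 0.0169% is low by the choice of the genes.

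Of the 872 genes, 110 (12.6%) had at least 1 TPM in both 1-cell libraries, and 99 of these are protein-coding. The 10 with the highest 1-cell level were Rnf121, Rnu1a1, Ogfod2, Rgcc, BC004004, Nelfe, Ssr2, Mt2, Ccdc107 and Eif4h, and 0 of them belong to the sperm lists above. The oocyte values of all 10 are under 1 TPM because the genes were chosen so, and the difference from oocyte is given as a description.

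Rnf121, a ubiquitin ligase gene, had 50.5 and 10.2 TPM in sperm, 0 in both oocyte libraries and 16.8 and 17.7 at 1-cell, 56.7% of its sperm mean. It was the most even of the 10 between the 1-cell libraries. Its value rests on a single-exon transcript of 111 bases at this locus (gene at chr7:102019137-102065469, minus strand), so it does not measure the full message. Rnu1a1, a U1 small nuclear RNA gene, had 26.6 and 434 TPM in sperm and 24.2 and 3.05 at 1-cell. It rests on a single-exon transcript of 165 bases, and U1 genes have near-identical copies that can share reads. Ogfod2, an oxygenase gene, had 101 and 80.5 TPM in sperm, 0.862 and 0.880 in oocyte and 13.7 and 8.17 at 1-cell, from 1 transcript with 7 exons. Nelfe, a subunit of the negative elongation factor, had 73.3 and 76.9 TPM in sperm, 0.192 and 0.582 in oocyte and 10.0 and 5.85 at 1-cell, which is 10.6% of the sperm mean. Ccdc107 had 107 and 127 TPM in sperm, 0.968 and 0.796 in oocyte and 8.50 and 5.63 at 1-cell. The metallothionein Mt2 had 32.7 and 20.6 TPM in sperm, 0.631 and 0 in oocyte and 10.6 and 4.03 at 1-cell. Rgcc, a regulator of the cell cycle, had 70.3 and 322 TPM in sperm, 0.958 and 0.820 in oocyte and 3.99 and 13.6 at 1-cell. Of these, Ccdc107 fell from sperm by 3.89 (SE 0.85, limma adjusted p = 0.00206) and Mt2 did not pass (-1.82, SE 0.84, adjusted p = 0.0842). Nelfe fell by 3.13 (SE 0.84, adjusted p = 0.00728, and 0.0781 without 1-cell replicate 2), and Ogfod2 by 2.97 (SE 0.85, adjusted p = 0.0104, and 0.0978 without 1-cell replicate 2). For all 10 genes the top transcript in sperm was also the top transcript at 1-cell. No other outcome was possible for genes with 1 merged transcript, such as Rnf121, Rnu1a1 and Ogfod2.

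**Figure D4:**
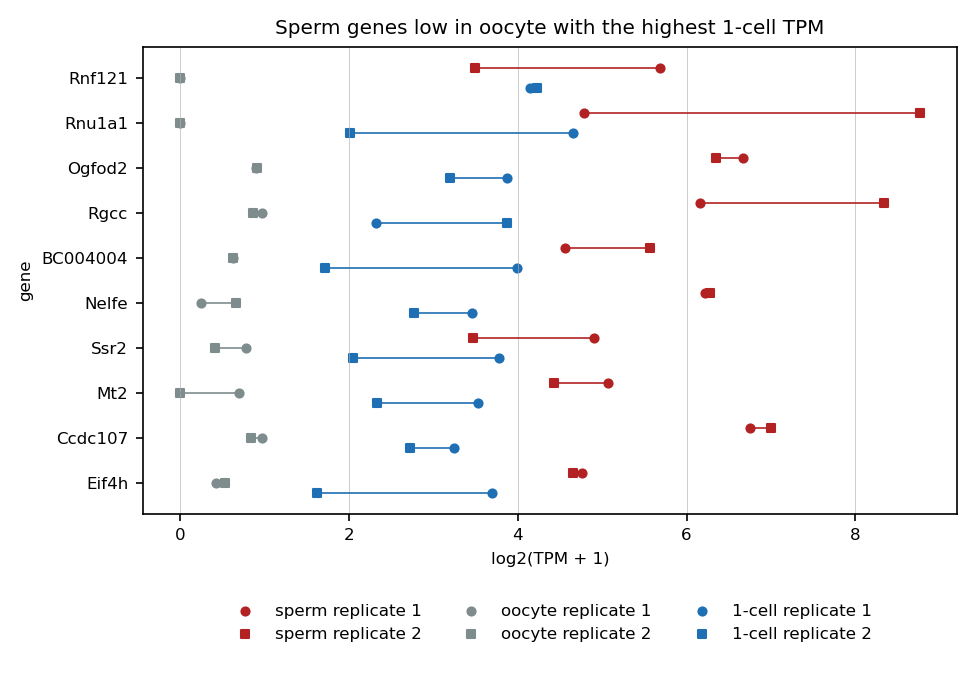
TPM on the log2(TPM + 1) scale (horizontal axis) in each library for the 10 genes with the highest 1-cell level among those with at least 10 TPM in sperm and under 1 TPM in oocyte. Both 1-cell values lie above both oocyte values by the choice of the genes, and for Rnf121 the 1-cell values of 16.8 and 17.7 TPM lie between those of sperm.

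The 110 genes seen were followed into later libraries. Both 2-cell libraries exceeded both 1-cell libraries for 85 of the 110 (77.3%), beside 39.4% of all genes tested and 10 of the 23 genes that were low in sperm and oocyte and seen at 1-cell. The median of the 110 was 2.52 and 2.11 TPM at 1-cell and 24.4 and 17.2 TPM at 2-cell. Of the 628 sperm genes that were under 1 TPM in both 1-cell libraries, 416 were likewise higher in both 2-cell libraries. Their median went from 0.122 and 0.103 TPM at 1-cell to 1.09 and 2.27 TPM at 2-cell. New transcription and delivery by sperm cannot be told apart from these levels. No allele was read here, and RNA from either source can carry the paternal allele.

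Genes listed at 0 TPM in both oocyte libraries were looked at separately. Of these, 7 that sperm held were seen at 1-cell, among them Rnf121 and Rnu1a1. Rps2-ps10, a pseudogene of the ribosomal protein gene Rps2 that can share reads with it, had the highest sperm level of the 7, with 128 and 1216 TPM in sperm and 3.34 and 3.59 at 1-cell. Gm10184 had 10.2 and 3.12 TPM in sperm and 22.1 and 9.95 at 1-cell, and Slc37a2, a sugar phosphate transporter gene, had 16.5 and 49.2 TPM in sperm and 1.16 and 5.41 at 1-cell. Zfp938, a zinc finger gene, had 12.2 and 3.67 TPM in sperm and 8.53 and 1.27 at 1-cell, and Hcst, an adaptor of immune receptors, had 27.5 and 4.88 TPM in sperm and 1.86 and 3.85 at 1-cell. These 5 were named after their values were seen. Rnf121, Rnu1a1, Rps2-ps10, Gm10184 and Slc37a2 each rest on 1 single-exon transcript.

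Genes of the egg were among those with the largest rises from sperm to 1-cell. All 12 members of the subcortical maternal complex list rose from sperm to 1-cell (background 18.2%), with a median difference of 6.04. The call of 1 of them, Khdc3, was lost without any 1 of the sperm or 1-cell libraries (limma adjusted p between 0.0580 and 0.318). Of 20 genes of the zona pellucida and oocyte growth factors, 19 rose and 1 did not pass, with a median of 5.23, and of 27 genes of maternal RNA storage, decay and meiosis, 23 rose and 4 did not pass, with a median of 4.84. Bcl2l10, an oocyte member of the BCL2 family, had 3.03 and 2.11 TPM in sperm, 16455 and 22401 in oocyte and 16658 and 4955 at 1-cell, a rise of 11.33 (SE 1.10, limma adjusted p = 2.79e-05). Btg4, an adaptor of maternal RNA decay, had 2.07 and 1.84 TPM in sperm and 5864 and 1441 at 1-cell. Gdf9, an oocyte growth factor, had 1.84 and 1.02 TPM in sperm, 4176 and 15568 in oocyte and 1302 and 538 at 1-cell. Both 1-cell values of Gdf9 lay below both oocyte values, with an unadjusted limma p of 0.00825 and an adjusted p of 0.482. H1foo, the oocyte linker histone, was likewise lower at 1-cell than in oocyte (3542 and 1401 TPM against 12322 and 12737), with an adjusted p of 0.674.

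The 10 largest rises from sperm to 1-cell were C86187, Tcl1, Bcl2l10, Zbed3, Zfp57, Oog3, Khdc1b, Omt2b, D6Ertd527e and Dppa3, between 10.36 and 11.64 on the log2 scale. All 10 had at least 300 TPM in both oocyte libraries. Omt2b lost its call without sperm replicate 2 (limma adjusted p = 0.0559). Zfp57, which protects imprints from demethylation, had 5.36 and 1.56 TPM in sperm, 300.5 and 691 in oocyte and 9859 and 5473 at 1-cell. Both 1-cell libraries of Zfp57 were above both oocyte libraries, and the difference of 4.01 (SE 1.03) had a limma adjusted p of 0.296. Zbed3, a gene tied to the subcortical maternal complex, had 36.0 and 40.3 TPM in sperm, 24172 and 64680 in oocyte and 42130 and 132360 at 1-cell.

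Of 31 measured genes of early zygotic transcription, 16 were tested. Of these, 6 rose from sperm to 1-cell (background 18.2%), 3 fell (background 33.1%) and 7 did not pass. Both 1-cell libraries were above both oocyte libraries for 8 of the 16 (background 27.5%) and below for 2 (background 8.91%). Among the 4 members with the highest mean TPM, Pabpn1l had 862 and 1226 TPM in oocyte and 488 and 158 at 1-cell. Sp110 had 114 and 191 TPM in oocyte and 93.5 and 96.0 at 1-cell. For Cdkn1a and Zfp560, the others of the 4, the oocyte and 1-cell values overlapped. The members Arg2 and Zfp352 were named after their values were seen. Arg2, an arginase, had 6.84 and 1.22 TPM in sperm, 2.97 and 1.79 in oocyte and 78.0 and 58.9 at 1-cell. It rose from sperm by 4.04 (SE 0.91, limma adjusted p = 0.00248) and differed from oocyte by 4.37 (SE 0.91, unadjusted p = 0.000286, adjusted p = 0.241). Both 1-cell libraries of Arg2 were above all sperm and oocyte libraries. Zfp352, a gene of the early embryo, had 0.219 and 0.335 TPM in sperm, 0.338 and 0.102 in oocyte and 2.19 and 11.1 at 1-cell.

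Of 81 genes of cytosolic ribosomal proteins, 43 fell from sperm to 1-cell (background 33.1%), 2 rose (background 18.2%) and 36 did not pass, with a median of -2.55 beside -0.51 over all genes. Their summed TPM was 14210 and 12953 in sperm, 3022 and 3476 in oocyte and 3969 and 1651 at 1-cell. Rpl13 had 2262 and 5369 TPM in sperm, 33.5 and 26.8 in oocyte and 79.4 and 69.4 at 1-cell. Against oocyte, 0 passed and 9 had an unadjusted p under 0.05 in the higher direction (background 5.48%), and both 1-cell libraries were above both oocyte libraries for 31 of 81 (background 27.5%). In the long-read pools, 44 of the 81 had a transcript with a shared intron at 1-cell, 25 in oocyte and 73 in sperm. Of 6 members low in oocyte and held by sperm, 3 were seen at 1-cell, Rps6, Rpl18 and Rpl24, beside 10.1% of all such genes. Rpl18 had 93.4 and 37.7 TPM in sperm, 0.672 and 0.833 in oocyte and 9.84 and 2.38 at 1-cell. Ribosomal protein genes have many processed pseudogenes that can share reads. Of 15 mitochondrially encoded genes only 3 were measured, and mt-Nd5 had 3414 and 695 TPM in sperm, 1344 and 165 in oocyte and 225 and 589 at 1-cell.

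The sperm libraries also held RNA of other cell types. The leukocyte and blood list summed to 80585 and 21379 TPM in sperm, 27.1 and 8.42 in oocyte and 8.72 and 8.68 at 1-cell, and all 15 tested members fell from sperm to 1-cell. Cd74, the invariant chain of antigen-presenting cells, had 71096 and 14459 TPM in sperm and 2.80 and 3.49 at 1-cell. Lyz2, lysozyme of macrophages and neutrophils, had 6151 and 1519 TPM in sperm and 0.250 and 0.208 at 1-cell. Hba-a1, an alpha globin with a near-identical copy, had 1803 and 4384 TPM in sperm. The pan-leukocyte gene Ptprc had 35.2 and 7.07 TPM in sperm and 0 and 0.00963 at 1-cell. The 10 largest falls from sperm to 1-cell included Cd74 (-12.92 on the log2 scale), H2-Ab1 (-11.82), Lyz2 (-11.28) and Apoe. They also included Nupr1l (-12.33), 1700003F12Rik (-11.89), Gm6760 and the spermatid genes Tnp2, Prm1 and Tssk6.

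The list of epididymal epithelium summed to 10645 and 1343 TPM in sperm, 43.2 and 56.6 in oocyte and 99.3 and 26.0 at 1-cell, and 18 of its 20 tested members fell. Crisp1, a secreted epididymal protein, had 2006 and 335 TPM in sperm and 0.0616 and 0.0798 at 1-cell. The oviduct epithelium list summed to 563 and 824 TPM in sperm, where Epcam and keratins carried it, and to 13.7 and 17.0 at 1-cell. Of the cumulus and granulosa cell list only 8 of 30 members were measured. It summed to 155 and 1175 TPM in sperm, 430.2 and 1291 in oocyte and 869 and 582 at 1-cell. Serpine2 (555 and 493 TPM) and Ube2c (304 and 84.8 TPM) made up most of the 1-cell sum, and Nr5a2 rose to 6.81 and 1.88 TPM, a call that was lost without sperm replicate 1 (limma adjusted p = 0.154), sperm replicate 2 (0.109) or 1-cell replicate 1 (0.245). The defining markers Amhr2 and Ptgs2 were under 0.2 TPM in both 1-cell libraries. Of the 2 members of the cumulus and granulosa list held by sperm and under 1 TPM in both oocyte libraries, 1 was seen at 1-cell. This was Col4a2, with 0 and 0.718 TPM in oocyte and 1.56 and 2.33 at 1-cell. It rests on 1 single-exon transcript of 419 bases. Over all such genes the share seen was 10.1%. The libraries labelled sperm thus held spermatid genes at high levels beside RNA of other cell types. Summed TPM in sperm was 34636 and 34941 for the 132 measured genes of the 7 sperm lists. For the 17 measured genes of the leukocyte and blood list it was 80585 and 21379. No member of the sperm lists was among the 10 most abundant genes in sperm. Of these 10, 3 are known from macrophages or antigen-presenting cells (Apoe, Cd74 and H2-Ab1). The others were Nupr1l, Dusp1, Hist2h2aa2, Fth1, Cst3, Ubb and Pebp1. How much of the other sperm-held genes came from such cells was not tested. Only 31 of the 2485 sperm-held genes under 1 TPM in oocyte belong to the 4 lists of other cell types. Leaving them out, an alternative chosen after seeing the data, could thus hardly move the share seen (10.2%) and does not bear on this.

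**Figure D5:**
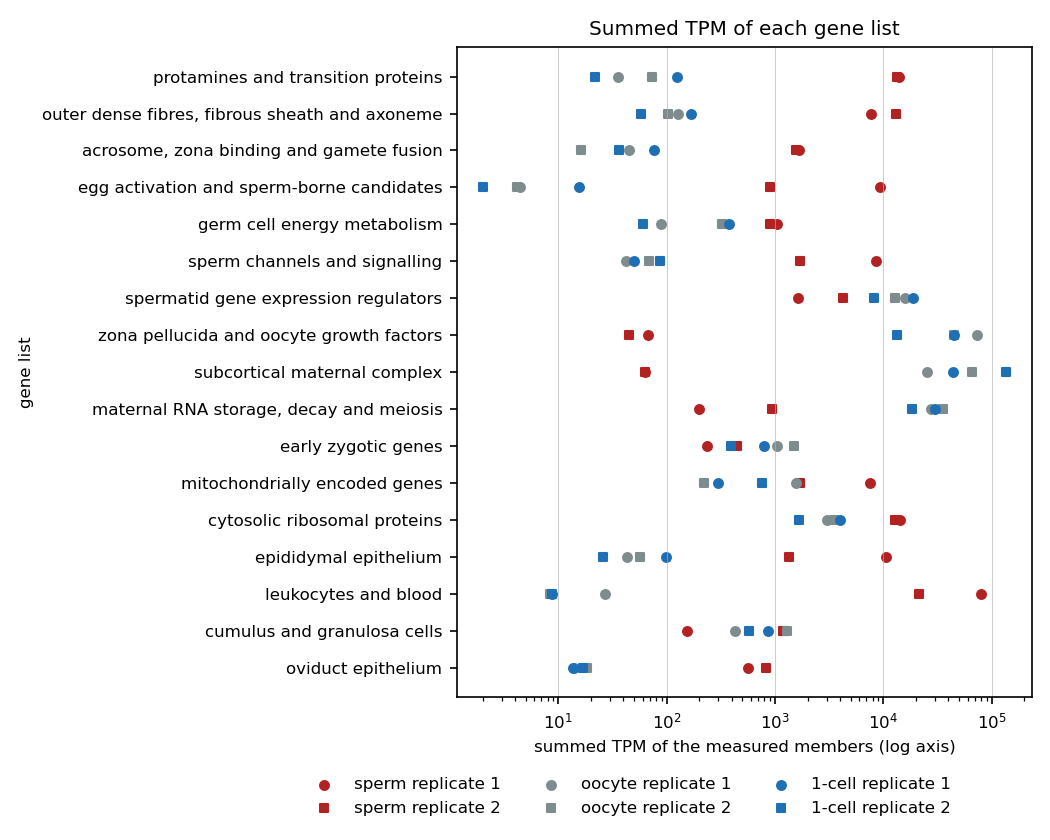
Summed TPM of the measured members of each gene list (horizontal log axis) in each sperm, oocyte and 1-cell library. The protamine list lies at 13907 and 13488 TPM in sperm and at 125 and 21.8 TPM at 1-cell, of which the histone gene Hist1h2aa holds 107 and 19.8, and the leukocyte and blood list at 80585 and 21379 TPM in sperm and at 8.72 and 8.68 TPM at 1-cell.

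The long-read pools allowed a comparison of whole splice structures. The sperm pool held 6258 distinct intron chains of multi-exon transcripts, the oocyte pool 5066 and the 1-cell pool 5416. Identical chains were found at 1-cell for 975 of the sperm chains (15.6%, Wilson 95% interval 14.7 to 16.5%) and in oocyte for 943 (15.1%, 14.2 to 16.0%). In contrast, 2253 of the 1-cell chains (41.6%, 40.3 to 42.9%) were found in oocyte. Of the sperm chains, 317 (5.07%, 4.55 to 5.64%) were found at 1-cell and not in oocyte. Each stage has 1 pool, so these shares have no replicate check. Whether a chain missing from a pool was there but not sampled was not tested, and short-read levels are given below for the 317 chains only.

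By short reads, most of the genes of these 317 chains were held by the oocyte. They belonged to 313 genes, of which 272 had at least 1 TPM in both oocyte libraries and 11 were under 1 TPM in both. At the level of the transcript, 242 of the 300 chains with a TPM had at least 1 TPM in both oocyte libraries. Under 1 TPM in both oocyte libraries were 14, and 9 of these had at least 1 TPM in both 1-cell libraries. Examples are Cstb, a cysteine protease inhibitor, with 55.0 and 32.2 TPM in sperm, 0.696 and 0.674 in oocyte and 4.95 and 2.51 at 1-cell, and Snapc5, a subunit of a small nuclear RNA activator, with 16.5 and 6.43 TPM in sperm, 0.511 and 0 in oocyte and 12.5 and 2.05 at 1-cell. These examples were picked after their values were seen. Of the 132 genes of the 7 sperm lists, 94 had a long-read transcript with a shared intron in the sperm pool, 17 in the oocyte pool and 16 in the 1-cell pool. The 4 that were in the 1-cell pool and not in the oocyte pool were Prm2, Calr3, Ube2u and 4930451I11Rik. Of these, Calr3 (19.2 and 5.96 TPM), Ube2u (49.5 and 4.11 TPM) and 4930451I11Rik (7.01 and 1.78 TPM) were also held by the oocyte by short reads, as was Prm2 at the 3.40 and 4.16 TPM given above. Of the 17 measured leukocyte and blood genes, 16 were in the sperm pool, 0 in the oocyte pool and 0 in the 1-cell pool.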

How the data were processed

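Per the study's methods, the authors mapped long reads to mm10 with GMAP, merged the transcripts of 7 stages with Cuffmerge, and gave each a TPM in each short-read library with Salmon. The deposited TPM values per merged transcript were summed per GENCODE vM21 gene by exon overlap on the same strand (954 transcripts overlapped more than 1 gene and went to the gene sharing most bases). Genes with at least 1 TPM in at least 2 of 6 libraries were tested with limma 3.58.1 (trend) on log2(TPM + 1), which understates changes of low genes, with stage as the only term and Benjamini-Hochberg adjustment (R 4.3.3, Python 3.11.15). Seen means at least 1 TPM in both libraries. Long-read chains were matched by identical introns.

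The members and the 18 gene lists were chosen with earlier results of these data known, and 1 listed symbol that is no gene was removed later. Named by rule were up to 4 genes per list by mean TPM, the 10 largest rises and the 10 largest falls, the 10 highest sperm genes, the 10 highest 1-cell genes among those at 10 TPM or more in sperm and under 1 TPM in oocyte, Y genes and markers of other cells. Not every gene that the rule selects is printed. Further members named in the text were chosen after their values were seen. The fit was tested on simulated data. TPM over stage-specific transcripts was not used.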

Additional observations from a re-analysis of the deposited data

Results flagged for a closer look

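Marker lists of other cell types were also summed in the later embryo libraries, which no comparison above uses, and a stage was listed when both libraries exceeded the higher oocyte library. This check was widened to every later stage after the values at 2-cell had been seen. The epididymal list, at 43.2 and 56.6 TPM in oocyte, summed to 81.2 and 267 TPM at 2-cell, 480.3 and 495 at 4-cell, 435 and 596 at 8-cell and 298 and 127 at blastocyst. The leukocyte and blood list, at 27.1 and 8.42 TPM in oocyte, summed to 47.0 and 501 TPM at 2-cell, 154 and 166 at 4-cell and 45.3 and 71.3 at 8-cell. The cumulus and granulosa list, at 430.2 and 1291 TPM in oocyte, exceeded it at 8-cell only, with 1390.1 and 1627 TPM. The oviduct list, at 14.1 and 18.3 TPM in oocyte, summed to 760 and 204 TPM at 2-cell, 124 and 82.3 at 4-cell, 304 and 653 at 8-cell and 10466 and 38391 at blastocyst, where it holds keratins and Epcam that embryo epithelium also expresses. The source of these sums was not tested.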

How the results depend on the processing

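The gene set was held at the 10139 genes of the 6-library filter in the fits that left out libraries. This was set after counts had been seen, because filtering anew changed the genes tested as well as the libraries. Leaving out 1 library gave 886 to 1783 higher genes (main 1850) and 2098 to 3125 lower genes (main 3355) from sperm to 1-cell, with the lowest counts without 1-cell replicate 1 and without 1-cell replicate 2. Against oocyte, with 0 called in either direction, the higher calls were 3 with a minimum of 5 TPM, 14 with all 14 libraries, 14 with a pseudocount of 0.1, 1 with stricter gene matching and 77 with the spread weighted by stage. The lower calls were 1 with all 14 libraries, 2 with a pseudocount of 0.1 and 10 with the weighted spread, and both directions stayed at 0 in the other settings. With the replicate number as a block, 26 genes were higher and 3 lower against oocyte, and 2049 were higher and 3491 lower against sperm. The deviations of same-numbered libraries correlated at 0.239 (sperm and oocyte), 0.0931 (sperm and 1-cell) and -0.0926 (oocyte and 1-cell), and nothing says that a number marks the same batch in different stages, so the number was not taken as a pairing. The share of sperm-held genes seen at 1-cell (10.1%) was 17.9% by the mean of both libraries, 0.527% at 5 TPM and 0.692% with oocyte under 0.1 TPM, and 9.75% to 21.9% without 1 library. Among genes low in sperm and oocyte (5.87%) it was 10.5%, 0.191% and 0.0%, and 5.61% to 20.6% without 1 library. Without oocyte replicate 1 the shares were 16.7% and 20.6%, so that the second exceeded the first. The median 1-cell level as a share of sperm (0.441%) was 0.0751% with oocyte under 0.1 TPM and 0.355% to 0.794% without 1 library. The 2 other limits for seen do not apply to it. Sperm chains found at 1-cell were 22.7% when contained chains counted (15.6% identical). For named genes against sperm, values that passed in the main analysis still passed in 1247 refits and did not in 53, and values that had not passed did so in 22 of the others and not in 248. Against oocyte, where no named gene passed, 5 refits gave a call and 1565 did not. No value that passed turned its direction. The causes were not tested.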
